A study of Solanum lycopersicum with 8 samples.

Results

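Of 8404 probe sets on a tomato leaf array, 52 were taken as raised only early by a spray of neutralized phosphorous acid (NPA). At 6 h after the spray each stood above the water control, and at 12 h less far above it or below it. They were chosen by the measured values themselves. In both repeats NPA minus water had to be at least 0.8 on the log2 scale at 6 h and below 0.5 at 12 h, for probe sets that are not array controls. The 52 were 0.619% of all probe sets and 24.4% of the 213 that reached 0.8 in both repeats at 6 h. Another 47 of these 213 (22.1%) reached 0.8 in both repeats at 12 h as well, and the other 114 lay between. Gene symbols were known for 5 of the 52: AOC, SPM1, MTS1, Xegip and EREB. The other 47 had none in the platform annotation and are given by probe set identifier.

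All plants were tomato of the cultivar Summer sweet, grown at 27 °C under a photoperiod of 12 h. NPA plants received phosphorous acid at 1 g per litre that potassium hydroxide had neutralized to pH 6.3, and control plants received water. There were 4 groups, water and NPA at 6 h and water and NPA at 12 h, with 2 arrays each. One array measured leaf RNA from a pool of 5 plants, so differences between single plants cannot be seen. The whole experiment was done in 2 repeats, and every p-value here measures the spread between these pools. An untreated group was not analysed here, so the effect of spraying with water is part of every value. The number of arrays limits the precision of every value. In leaf pools, less RNA per cell and fewer cells of a type cannot be told apart. The 4 photosynthesis markers that were measured, CAB4, CAB5, CAB6A and PSBO, had mean log2 values of 11.28 to 13.90. Root and fruit markers could not be matched by symbol, so the tissue could not be checked against them.

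Salts of phosphorous acid are taken up by leaves and are used against oomycetes such as Phytophthora, which they can inhibit directly. They are also known to alter defence responses of the plant. Early defence and wound responses of leaves run in part through jasmonate, an oxylipin hormone made from linolenic acid in steps that include allene oxide synthase and then allene oxide cyclase, and through ethylene response factors (ERFs), transcription factors that bind the GCC box of defence gene promoters. Such responses can be transient, and an effect measured against a control can end in more than 1 way. The treated leaves can return to the control level, or the control leaves can reach the treated level.

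AOC encodes allene oxide cyclase, the enzyme that follows allene oxide synthase in jasmonate synthesis. Its log2 values were 10.76 and 10.90 in the water arrays at 6 h (repeats 1 and 2) and 11.70 and 11.90 in the NPA arrays at 6 h. At 12 h they were 8.86 and 9.31 in water and 9.34 and 9.17 in NPA. Both 6 h NPA arrays were the highest of the 8, and at 12 h the range in water enclosed the second NPA array but not the first. NPA minus water was 0.94 and 1.00 at 6 h, a 1.96-fold difference of means, and 0.48 and -0.14 at 12 h. The effect ended while AOC was lower at 12 h under both sprays, with changes of -2.54 in NPA and -1.75 in water. Averaged over both sprays AOC fell by 2.15 from 6 h to 12 h (SE 0.13, n = 8 arrays, limma adjusted p = 0.000173).

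SPM1 had the largest 6 h effect of the 5 named genes. It was measured at 10.12 and 10.14 in water and at 11.92 and 11.95 in NPA at 6 h. At 12 h the values were 9.30 and 9.39 in water and 9.11 and 9.26 in NPA. The repeats differed by at most 0.15 within any group, and at 12 h both NPA arrays lay below both water arrays. NPA minus water was 1.80 and 1.81 at 6 h, a 3.49-fold difference, and -0.19 and -0.13 at 12 h. From 6 h to 12 h the mean changed by -2.75 in NPA and by -0.79 in water. The average of these changes was -1.77 (SE 0.08, limma adjusted p = 6.1e-05).

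MTS1 is a monoterpene synthase known from the glandular trichomes of tomato leaves, the hairs that store volatile terpenes. Its signal was among the lowest on the array, at the 0.0952th percentile of mean level, with 3.92 and 3.97 in water and 4.88 and 6.03 in NPA at 6 h. At 12 h it stood at 3.30 and 3.46 in water and at 3.36 and 3.81 in NPA. Both 6 h NPA arrays were above all others, and the repeats of that group lay 1.15 apart. NPA minus water was thus 0.96 in repeat 1 and 2.06 in repeat 2 at 6 h and 0.06 and 0.35 at 12 h. Detection calls were not used, and whether the water values lay above background is not known, so no fold is given for MTS1. MTS1 fell on average over both sprays, at -1.22 (SE 0.25, limma adjusted p = 0.0112), with a change of -1.87 in NPA and -0.56 in water. Of the glandular trichome markers sought, 2 were measured, MTS1 itself and the sesquiterpene synthase SSTLE1. SSTLE1 stood at -0.26 and 0.09 at 6 h and -0.48 and 0.74 at 12 h (NPA minus water), and its average time change of 0.17 (SE 0.22) did not pass in limma (adjusted p = 0.559). What part trichome RNA had in the MTS1 values was not tested.

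Xegip encodes an inhibitor protein of xyloglucan-specific endoglucanases, enzymes with which fungi break down plant cell walls. Values at 6 h were 7.21 and 6.93 in water and 8.41 and 8.0 in NPA. Those at 12 h were 7.35 and 6.70 in water and 7.73 and 7.14 in NPA. Repeat 1 was the higher of the repeats in all 4 groups, so that the second NPA array of 12 h lay below the first water array of that time. NPA minus water was 1.20 and 1.07 at 6 h, a 2.20-fold difference, and 0.38 and 0.44 at 12 h. At 12 h Xegip was thus above water in both repeats, within the limit of 0.5, and no other member had a larger mean effect at 12 h. The mean at 12 h differed from that at 6 h by -0.77 in NPA and by -0.04 in water. The average time change of -0.41 (SE 0.21) did not pass in limma (adjusted p = 0.166), and it passed with the repeat as a block (adjusted p = 0.011, over all alternatives 0.011 to 0.393). It was -0.24 without the second water array of 12 h and -0.26 with the second 12 h NPA array left out.

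EREB, with the RefSeq synonym TSRF1, encodes an ERF transcription factor. By group means it was the named gene whose effect ended from the other side, with a rise in water. At 6 h it was measured at 3.71 and 3.86 in water and at 5.05 and 4.72 in NPA. At 12 h it was measured at 6.00 and 4.68 in water and at 5.65 and 4.17 in NPA. The 6 h groups did not overlap, whereas at 12 h the repeats lay further apart than the sprays, by 1.32 in water and 1.48 in NPA. NPA minus water was 1.34 and 0.86 at 6 h and -0.35 and -0.51 at 12 h. The mean in NPA was nearly the same at both times, with a difference of 0.03 (SE 0.57). This came from opposite changes, 0.60 in repeat 1 and -0.55 in repeat 2. The mean in water was higher by 1.55 (SE 0.57) at 12 h, with 2.29 in repeat 1 and 0.82 in repeat 2. In repeat 2 the effect thus ended from both sides. The average time change of 0.79 (SE 0.40) did not pass in limma (adjusted p = 0.161), and it passed without the second NPA array of 12 h, at 1.16 (adjusted p = 0.0453, over all alternatives 0.0453 to 0.377). It was 0.42 without the first NPA array of 12 h, 0.46 without the first water array of 12 h and 1.12 without the second. The mean level of EREB was at the 0.434th percentile of all probe sets, and as for MTS1 no fold is given.

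**Figure D1:**
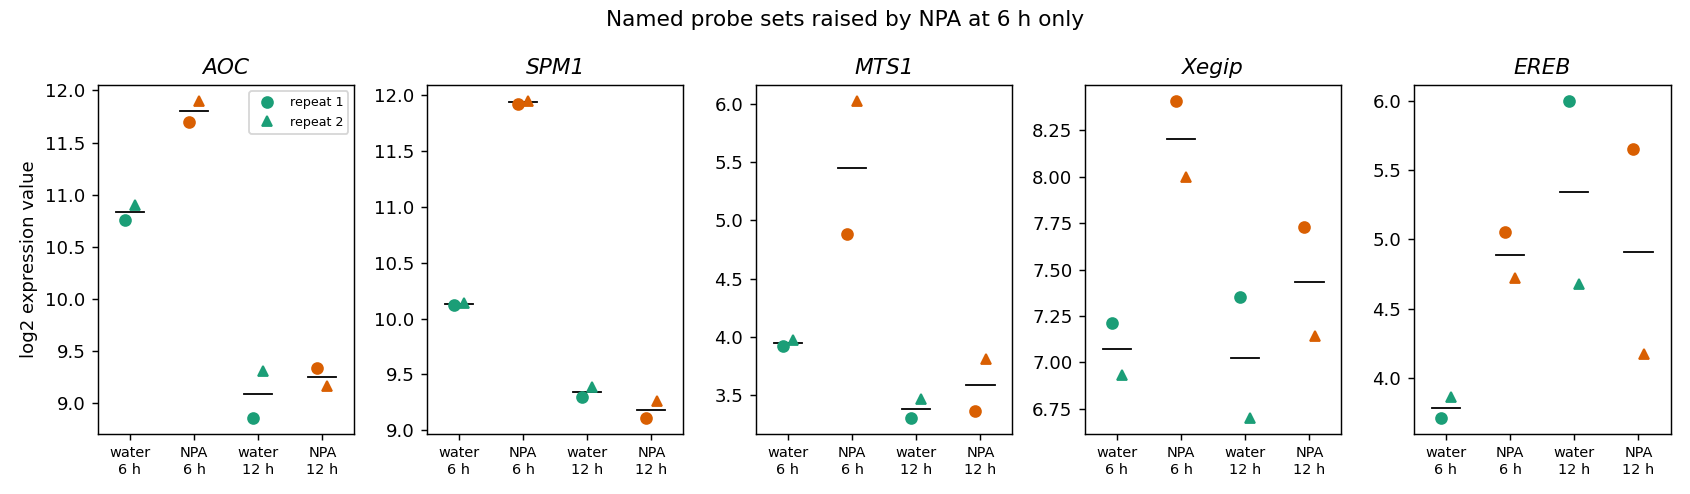
Deposited log2 values of the 5 named probe sets in each of the 8 arrays. Circles are repeat 1, triangles repeat 2, black lines the group means, and the vertical axis has its own range in each panel. AOC, SPM1, MTS1 and Xegip are highest in NPA at 6 h. EREB in water is between 3.71 and 3.86 at 6 h and between 4.68 and 6.00 at 12 h.

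How the effect ended was measured for every member. The 6 h effect minus the 12 h effect, called the closing, equals the amount by which NPA was lower at 12 h plus the amount by which water was higher. The share of the closing that came from the NPA arrays puts each member in 1 of 3 classes, named "fall in NPA" for a share of 66.7% or more, "rise in water" for 33.3% or less, and "both" in between. Closing ranged from 0.645 to 2.75 with a median of 1.12. The class of fall in NPA held 37 members, among them AOC, SPM1, MTS1 and Xegip, that of rise in water held 12 with EREB, and the class of both held 3. These classes describe arrays that the choice of members had used, and they carry no test. Their proportions depended on the limits. With a 6 h limit of 0.6 there were 58 members in the class of fall in NPA and 34 in that of rise in water, with limits on the mean of both pairs 78 and 52, and with repeat 1 alone 78 and 63.

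For most members the NPA arrays came down. NPA was lower at 12 h than at 6 h in both repeats in 43 of the 52, higher in both in 2, and lower by at least 1 on average in 30. The median change in NPA was -1.26 over all members, from -4.17 to 0.58, and 0.02 over all probe sets. Members had been chosen for high NPA values and low water values at 6 h, so these counts describe arrays that chose them. The shares of all probe sets lower or higher in both repeats, in NPA or in water, are not given here. Water did not go one way, being lower at 12 h in both repeats in 25 members and higher in both in 20. Its median change was -0.06 over the members and 0.02 over all probe sets. All 25 members lower in water were in the class of fall in NPA, as the definition of the share requires. In that class 22 members had a mean in water lower by over 0.3 and 15 had one within 0.3 of that at 6 h.

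The share from NPA had a median of 105%, and it was above 100% in 27 members. By its definition, a share above 100% means that water was lower at 12 h too and NPA was lower by more. In the class of fall in NPA the medians were -1.62 for NPA and -0.53 for water. In the class of rise in water the change in NPA had a median of -0.01 with a range of -0.42 to 0.58, and the change in water had a median of 1.18 with a range of 0.70 to 1.98. All 12 members of that class were higher in water at 12 h in both repeats, and NPA was lower in both repeats in 3 of them, higher in both in 2 and divided in 7. The 3 members of the class of both were Les.2027.3.S1_at, Les.2572.2.S1_a_at and Les.5855.1.S1_at, named here after their values were seen, with changes of -0.47 to -0.88 in NPA and 0.32 to 0.76 in water.

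**Figure D2:**
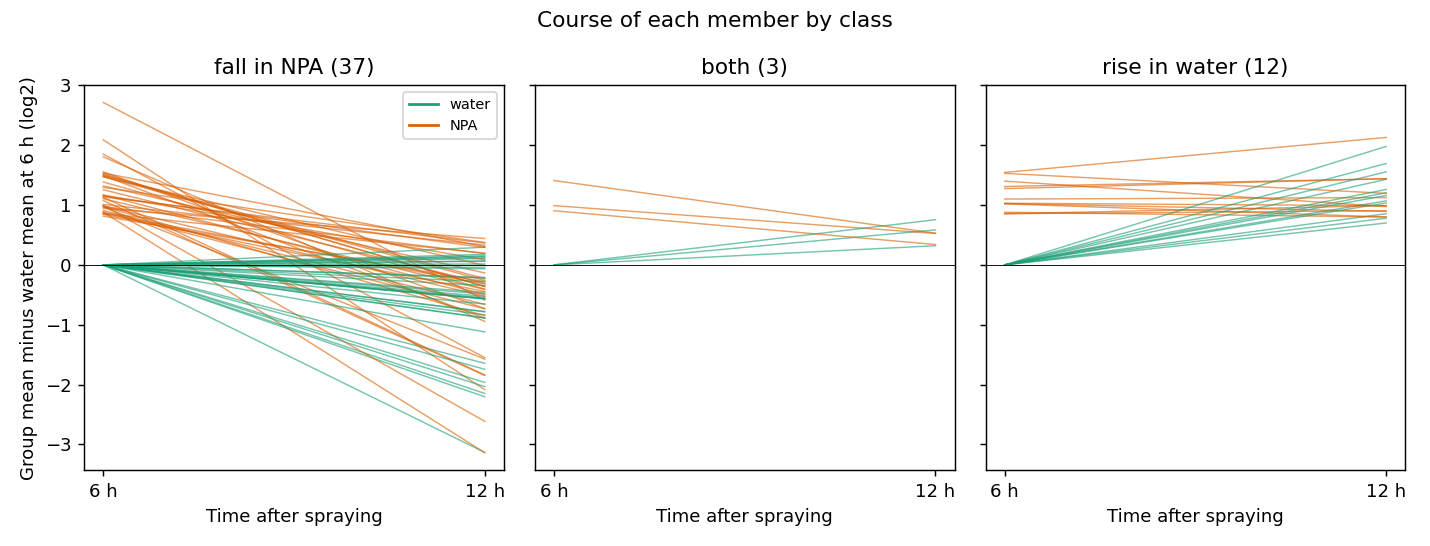
Group means of each member relative to its own water mean at 6 h, in log2 units, with water in green and NPA in orange, in the 3 classes. In the left panel the NPA lines change by -4.17 to -0.51 and the water lines by -3.13 to 0.30, and in the right panel the NPA lines change by -0.42 to 0.58 and the water lines by 0.70 to 1.98.

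**Figure D3:**
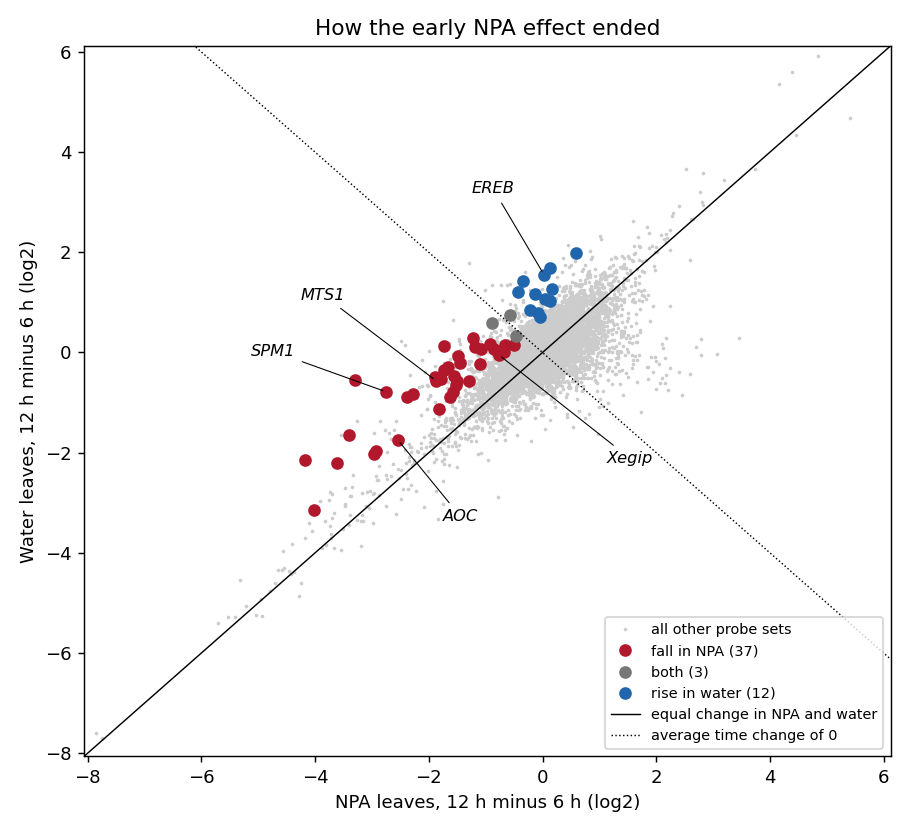
Change from 6 h to 12 h in NPA leaves (horizontal) against that in water leaves (vertical), in log2 units, for all 8404 probe sets, with members coloured by class. All 52 members lie above the solid line of equal change, as their choice required, and the dotted line, on which the average change is 0, divides them by the side that moved more.

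Counted by limma's test, 33 of the 52 members (63.5%) were lower in NPA at 12 h, where 11.8% of all probe sets were, and 0 were higher, where 14.2% of all were. In NPA 35 members had an unadjusted p under 0.05. In water 14 members (26.9%) were lower at 12 h, where 10.5% of all probe sets were, and 10 (19.2%) were higher, where 11.7% of all were. With the repeat as a block 38 were lower in NPA, against 18.7% of all probe sets, and in water 18 were lower and 12 higher, against 17.2% and 20.2% of all. Without the first water array of 6 h the counts in water were 3 lower and 0 higher. They were 7 and 3 without the second water array of 6 h. Leaving out the first or the second water array of 12 h gave 6 and 10 lower, and leaving out the second of these gave 2 higher. With an array left out, the share of all probe sets is not given here. The smaller counts are thus not read as a trait of the members. The members had been chosen for high NPA values and low water values at 6 h. The shares above thus describe the arrays that chose them and support nothing.

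The average of the NPA and water time changes was not used in that choice. With equal numbers of arrays in all groups it is uncorrelated with every NPA minus water difference in limma's model, which gives all groups the same spread. Where the NPA arrays of 6 h spread more than the others, the average need not be uncorrelated with the choice. In MTS1, for example, the 6 h values were 4.88 and 6.03 in NPA and 3.92 and 3.97 in water. With 2 arrays in a group an equal spread cannot be checked for a single probe set. An average below 0 says that NPA was lower by more than water was higher, and one above 0 the reverse. Every member closed by at least 0.645, so a member with an unchanged water mean has an average below 0 from the closing alone. Les.4766.1.S1_at, named after its values were seen, passed as lower at -0.47 while its water mean was higher by 0.295. All probe sets were not chosen for a closing, so their shares below do not say what the choice alone would give. The average time change passed as lower in 29 of the 52 members (55.8%), against 17.9% of all probe sets, and as higher in 5 (9.62%), against 20.9% of all (limma, adjusted p under 0.05). Its median was -0.715 over the members and 0.03 over all probe sets. It was below 0 in both repeats in 37 members, against 39.1% of all probe sets, and above 0 in both in 12, against 44.4% of all. With 1 probe set counted for each probe set cluster, 24 fell and 5 rose.

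Of the 29 that fell, 18 had a 12 h mean above 6.29, the limit of the lowest 10% of all probe sets. The other 11 had one at or below it, as had 17 of all 52 members. Such low values were thus more frequent among them than on the array as a whole. This limit is not a detection limit, and what part low signal had in the falls was not tested. With the repeat as a block 33 fell and 8 rose, with all 29 and all 5 kept, while 24.5% of all probe sets fell and 28.9% rose. The number that rose was 1 without the first water array of 6 h, the second NPA array of 6 h or the second water array of 12 h. It was 3 without the second water array or the first NPA array of 6 h. For comparison, 6 of the 47 probe sets that stayed at or above 0.8 at both times (12.8%) passed as lower and 0 as higher, or 12 (25.5%) and 3 with the block, and 31 of the 161 probe sets (19.3%) that reached 0.8 in both repeats at 6 h without being members passed as lower. These differences between sets of probe sets were not tested. Of these sets only the members had been chosen for a lower effect at 12 h. For the counts with an array left out, the share of all probe sets is not given here. The sample titles give no hour of day for spray or harvest. With a common hour of spraying, the 2 harvests would have fallen at different hours of day. The hour of day then cannot be told apart from the time since spraying.

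**Figure D4:**
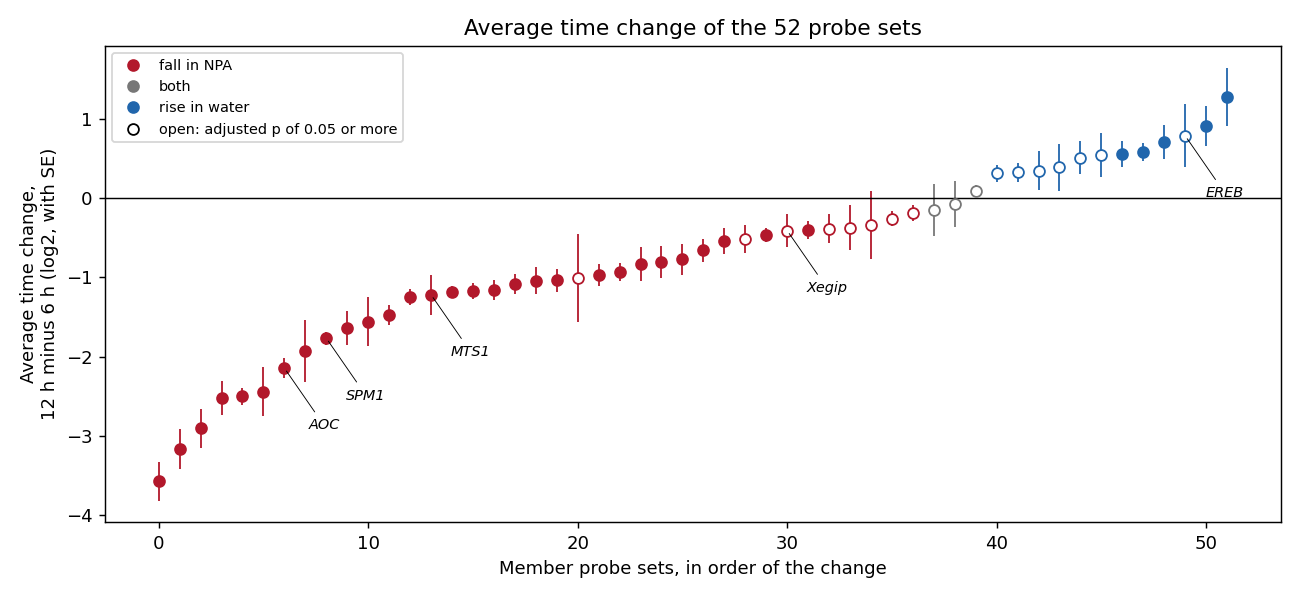
Average time change of each member with its SE from limma, in log2 units and in rising order, coloured by class. Filled points have an adjusted p under 0.05. They number 29 below 0, all in the class of fall in NPA, and 5 above 0, all in the class of rise in water, and the sign within a class follows from how the classes were made.

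Among members without a symbol, Les.1189.1.A1_at had the largest 6 h difference of all 52 in the deposited values. Its values were 3.57 and 3.57 in water and 5.31 and 7.26 in NPA at 6 h, then 2.97 and 3.07 in water and 2.90 and 3.06 in NPA at 12 h. Both 6 h NPA arrays stood apart from the other 6, but they differed by 1.95 from each other. NPA minus water was 1.74 and 3.69 at 6 h and -0.07 and -0.01 at 12 h. It fell by 1.93 on average over both sprays (SE 0.39, limma adjusted p = 0.0099), and its mean level was at the 0.0714th percentile of all probe sets. Whether its water values and its 12 h values lay above background is not known.

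LesAffx.53591.1.S1_at had the next largest 6 h effect and also one of the lowest average time changes. It was measured at 7.45 and 6.99 in water and 9.54 and 9.08 in NPA at 6 h, and at 4.69 and 5.45 in water and 4.77 and 5.50 in NPA at 12 h. The sprays differed by 2.09 in each repeat at 6 h and by 0.08 and 0.05 at 12 h, while all 4 of the 12 h arrays lay below all 4 of the 6 h arrays. Its change from 6 h to 12 h was -4.17 in NPA and -2.15 in water. LesAffx.64585.1.S1_at followed the same course, from 8.32 and 7.78 in water and 10.24 and 9.56 in NPA at 6 h to 6.12 and 6.69 in water and 6.61 and 6.39 in NPA at 12 h. Both fell in the average time change, at -3.16 (SE 0.25, limma adjusted p = 0.000439) and -2.52 (SE 0.22, adjusted p = 0.00061).

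Les.4281.3.S1_at had the lowest average time change, at -3.58 (SE 0.24, limma adjusted p = 0.000279). Water stood at 9.62 and 9.57 and NPA at 10.52 and 10.43 at 6 h, and at 12 h water stood at 6.10 and 6.82 and NPA at 5.99 and 6.92. The NPA effect of 0.90 and 0.86 at 6 h was small beside this time change, which in water alone was -3.13. Here the effect ended while both sprays were lower at 12 h by over 3 log2 units.

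Les.5884.1.S1_at and Les.4413.1.A1_at had the highest average time changes. Les.5884.1.S1_at was measured at 7.51 and 8.52 in water and 9.56 and 9.56 in NPA at 6 h, and at 9.31 and 10.68 in water and 9.78 and 10.51 in NPA at 12 h. Water was higher at 12 h by 1.98 and NPA by 0.58, so NPA minus water at 12 h was 0.47 in repeat 1 and -0.17 in repeat 2. Les.4413.1.A1_at was measured at 9.71 and 9.69 in water and 11.34 and 10.68 in NPA at 6 h, and at 11.56 and 11.23 in water and 11.63 and 10.65 in NPA at 12 h. Its mean in water was higher by 1.70 at 12 h and that in NPA by 0.13. Both rose in the average time change, by 1.28 (SE 0.37, limma adjusted p = 0.034) and 0.91 (SE 0.25, adjusted p = 0.0289). Each call was lost on leaving out any 1 of 5 arrays. Without the first water array of 6 h the adjusted p was 0.104 for Les.5884.1.S1_at, which also lost its call without either NPA array of 6 h or the second water or NPA array of 12 h. For Les.4413.1.A1_at the adjusted p was 0.0814 without the first water array of 6 h, and its call was lost also without the second water or NPA array of 6 h or either water array of 12 h. Over all alternatives the adjusted p ran from 0.00523 to 0.104 and from 0.00594 to 0.0821.

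The 6 h effect of the members, averaged over repeats, ranged from 0.815 to 2.71 with a median of 1.13. The 12 h effect ranged from -0.43 to 0.41 with a median of 0.07. At 12 h the repeats differed, with medians of 0.21 in repeat 1 and -0.10 in repeat 2. The 12 h effect was below 0 in 12 members in repeat 1, in 32 in repeat 2 and in 7 in both, and it was the lower in repeat 2 in 38. Member levels were lower than those of the array as a whole, with a median of 7.81 against 8.80, and 19 members lay above the array's median. A filter on low values was not applied, so all 52 were tested.

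A sizeable part of the members lay close to the limits. The weaker 6 h pair was under 0.9 in 17 members and the stronger 12 h pair was at least 0.4 in 11. Just inside the 6 h limit were Les.1097.1.A1_at, Les.2090.3.A1_at and Les.3216.1.S1_at, each with a weaker pair of 0.81. Just outside it were LE16 and Les.3210.2.A1_a_at at 0.79 and LesAffx.70212.1.S1_at at 0.78. At the 12 h limit Les.2988.1.S1_at and LesAffx.64585.1.S1_at at 0.49 and Les.2668.1.S1_at at 0.48 were inside, and twi1 at 0.50, ODC at 0.51 and Les.5567.1.S1_at at 0.52 were outside.

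The 52 probe sets came from 47 clusters by the number in their identifiers, so some of them share a target. Cluster Les.2090 had 3 members, and Les.3216, Les.281 and Les.1197 had 2 each. The 3 of Les.2090 had average time changes of -1.08, -1.04 and -0.93, and all 9 members of these clusters were in the class of fall in NPA. Other probe sets of a member's cluster did not always share its 6 h effect. At Les.2027 the member stood at 1.90 and 0.92 at 6 h (NPA minus water), and the 3 other probe sets stood between -0.40 and -0.21. At Les.2668 the other probe set, Les.2668.2.A1_at, stood at 3.07 and 2.41 at 6 h and missed the choice with 0.75 in repeat 1 at 12 h. These probe sets were named after their values were seen.

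In 2 members the repeats lay more than 1 log2 unit apart on average over the 4 groups. Les.513.1.S1_at was higher in repeat 2 by 1.38 on average, and its average time change of -1.01 had a limma adjusted p of 0.19, or 0.00245 with the repeat as a block. Les.5832.1.S1_at was lower in repeat 2 by 1.07, and its average time change of -0.34 had adjusted p values of 0.56 and 0.0267. With the block Xegip and Les.29.1.S1_at also fell, and LesAffx.66459.1.S1_at, Les.1360.1.S1_at and LesAffx.32379.1.S1_at rose. Those without a symbol in this paragraph were named after their values were seen.

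Of the 753 probe sets with a symbol, the closest in pattern to each named member were found by Pearson's r over the 8 arrays, a description in which points share the spray, the time and the repeat. CDPK1 (r = 0.995) and MCA1 (0.987) were closest to AOC, and LOC778316 (0.986) and LOC543856 (0.965) to SPM1. For Xegip they were ODD (0.983) and LOC543949 (0.979), for MTS1 SPM1 (0.927) and adc1 (0.910), and for EREB LOC778266 (0.919) and abz1 (0.905). The r for EREB and MTS1 rests on values near the bottom of the signal range. Pearson's r does not measure the size of a change. Mean 6 h effects were 0.215 for CDPK1 and 0.3 for MCA1 (AOC 0.97), and 0.165 for LOC778316 and 0.545 for LOC543856 (SPM1 1.805). They were 2.565 for ODD and 0.245 for LOC543949 (Xegip 1.135), 0.93 for adc1 (MTS1 1.51), and 0.395 for LOC778266 and 0.48 for abz1 (EREB 1.1).

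The members with a symbol were set beside other measured genes of their pathways. AOC, SPM1 and EREB had been chosen by their effects. They are left out of the counts and medians of 6 h and 12 h effects that follow. The counts of average time changes include them, although in a member such an average can be below 0 from the closing alone. Of the other 65 genes on the lists, 1, AOS, passed as higher under NPA at 6 h in limma and 0 passed as lower, against 0.143% of all probe sets higher and 0.0238% lower. With the block there were 5, with ODC, ACO4, PTI5 and the cell cycle inhibitor gene krp2 added. The share of all probe sets higher with the block is not given here, and 0.143% does not apply to these 5. Without any 1 of the 6 h arrays there were 0. The 13 other jasmonate genes had a median 6 h effect of 0.45 and a median 12 h effect of 0.23, where all probe sets had -0.01 and -0.03. AOS, allene oxide synthase, which makes the substrate of AOC, was higher under NPA at 6 h by 2.36 (SE 0.25, limma adjusted p = 0.04). Its mean level of 4.85 was at the 0.583th percentile of all probe sets. It was no member because its effect at 12 h was 0.90 in repeat 1. In the average time change, where 17.9% of all probe sets fell and 20.9% rose, 7 of the 14 jasmonate genes fell and 1 rose. AOC was among those that fell, with AOS at -1.39, the arginase gene ARG2 at -1.41, the wound-response aminopeptidase gene LAPA1 at -1.47, the transcription factor gene MYC2 at -0.84 and the lipoxygenase genes LOX1.1 at -1.098 and loxD at -0.93.

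SPM1 entered the polyamine list by its symbol alone, and its role is not stated here. The 5 other genes of that list had a median 6 h effect of 0.93 and a median 12 h effect of 0.01. In the average time change 5 of the 6 genes fell and 0 rose, against the same 17.9% and 20.9% of all probe sets, SPM1 itself, the arginine decarboxylase genes ADC (-2.16) and adc1 (-0.86), the ornithine decarboxylase gene ODC (-1.23) and ARG2, which is also on the jasmonate list. The 14 ERF genes other than EREB had a median of 0.28 at 6 h and 0.02 at 12 h. PTI5, an ERF that interacts with the kinase Pto, stood at 3.98 at 6 h (SE 0.92, limma adjusted p = 0.137, or 0.0494 with the block). In the average time change 1 of 15 ERF genes fell and 3 rose, PTI4 by 0.63, JERF1 by 0.88 and ERF4 by 0.63, which is close to the 20.9% of all probe sets that rose.

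The other lists held no member, and the same shares of all probe sets, 17.9% that fell and 20.9% that rose, stand beside their average time changes. The 20 ethylene genes had medians of 0.21 at 6 h and -0.12 at 12 h, with 8 that rose and 1 that fell in the average time change. The 6 WRKY genes, a family of defence transcription factors, had medians of 0.44 and 0.01, with 3 that rose and 1 that fell. The 8 cell cycle genes had medians of -0.19 and -0.14, with 2 that rose and 0 that fell. The photosynthesis markers moved with time as well. Their summed linear value was 62685 to 63684 in water and 60872 to 60923 in NPA at 6 h, and 23704 to 24459 in water and 22615 to 23131 in NPA at 12 h, and 3 of the 4 fell in the average time change. What part that had in the members' time changes was not tested.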

How the data were processed

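Leaf RNA was measured on 8 Affymetrix tomato arrays, with groups taken from the sample titles. The deposited log2 values had been made with RMA, per the submitters' processing notes. Its version is not given in the sources used here. They run from 2.68 to 14.6. Of 8488 probe sets 84 controls were left out. The platform annotation gave 1 symbol for 753 and none for 7651. Of the gene identifiers, 739 were found in RefSeq (SLM_r2.1). Positions are not given, since the array's build is unknown. Group means over all 8 arrays were fitted in R 4.3.3 by limma 3.58.1 with eBayes, which left 4 residual degrees of freedom, with Benjamini-Hochberg adjusted p under 0.05 over 8404 probe sets as the threshold.

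Members, gene lists and tests were chosen with earlier results of these data known. Named were all members with a symbol, the 3 unnamed ones with the largest 6 h effect, the 2 with the lowest and the 2 with the highest average time change, and the 3 probe sets nearest each limit. That the repeats are separate experiments comes from the series design text. Same-numbered arrays deviated together, with correlations of 0.316 to 0.596 over 6 pairs of groups. Values with the repeat as a block are printed for the counts of members and for named calls that it alters. Alternatives were the block, centring, another quantile normalization, an intensity trend, bright probe sets alone, other limits and leaving out each array. The fits were also run on simulated data with the same spread in all groups, and the outcome is not reported here. Other steps used Python 3.11.15 and matplotlib 3.10.9.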

Additional observations from a re-analysis of the deposited data

Results flagged for a closer look

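In 7 members both 6 h pairs lay above water and both 12 h pairs below it. The mean effect at 12 h was -0.16 for SPM1, -0.43 for EREB, -0.04 for Les.1189.1.A1_at, -0.41 for Les.2474.1.S1_at, -0.415 for Les.5855.1.S1_at, -0.215 for LesAffx.45975.1.S1_at and -0.425 for LesAffx.71623.1.S1_at. That of Les.1189.1.A1_at is close to the median of all probe sets at 12 h, -0.03. The choice of members had required both 6 h pairs above water and a lower effect at 12 h, and this difference was not tested. Over all probe sets the median 12 h effect was -0.04 in repeat 1 and -0.02 in repeat 2, so 12 h values below 0 are common on the array. The share of all probe sets below 0 in both 12 h pairs is not given here, so the 7 are not read as a trait of the members. Some of these probe sets were named after their values were seen. Groups of 2 arrays are too small for a test of single outlying arrays.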

How the results depend on the processing

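Of 124 alternative values of the counts and of the median share, 86 kept their direction and size, and of the average time changes of 11 named probe sets 7 kept their call under all alternatives and 0 reversed. Against 52 members there were 46 with centred arrays, 43 with another quantile normalization (39 shared), 22 with a 6 h limit of 1, 100 with a limit of 0.6, 31 with a 12 h limit of 0.3, 148 with limits on the mean of both pairs, and 163 to 165 from 1 repeat alone. The median share from NPA, 105%, became 120.1%, 88.5%, 98.1% and 81.1% under these 4 changes of limits and 72.5% to 96.2% from 1 repeat alone. Among probe sets above the median level there were 19 members, with a median share of 140%. Of these 12 fell and 2 rose in the average time change, 13 were lower in NPA, 8 were lower and 2 higher in water, and 1 list gene was higher at 6 h, counts that are smaller because fewer were tested. With the repeat as a block 8 members rose in the average time change, against 5, and 6 list genes (members included) were higher at 6 h, against 2. The block changed the call of Xegip and of no other of the 11. With an intensity trend 1 list gene was higher, and the cause was not tested. Leaving out 1 array gave 25 to 27 members lower and 1 to 6 higher in the average time change, 26 to 32 lower in NPA, 3 to 14 lower and 0 to 10 higher in water, and 0 to 2 list genes higher. Without 1 array the groups are unequal, and the average is no longer uncorrelated with the choice. The shares of all probe sets in these fits are not given here. No detection calls were used, so no dim probe set could be called absent.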
